A study of Mus musculus with 12 samples.

Results

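The Toll-like receptor (TLR) genes other than Tlr4 that were examined were Tlr1, Tlr2, Tlr3, Tlr6, Tlr7, Tlr8, Tlr9 and Tlr13, 8 of the 20551 genes in the deposited count table and chosen by name. Of these, 7 passed the low-count filter and were among the 13729 genes tested, and Tlr9 did not pass. RNA came from airway macrophages (AMs) of C57BL/6 mice, either Scnn1b-Tg animals, whose transgene overexpresses the beta subunit of the epithelial sodium channel in airway cells and causes mucus obstruction, or wild-type (WT) controls. Per the study's methods the mice were 6 weeks old and WT mice were littermates. The study states that its sequencing used female mice only. Cells were held for 12 h in medium alone or in medium with 100 ng/ml lipopolysaccharide (LPS) of Pseudomonas aeruginosa, which gave 4 groups of 3 libraries, 1 for each pairing of genotype and treatment. The 12 libraries came from 6 pools, each of 3 to 4 animals, with a medium and an LPS library from each. Pools are named by their label number (WT 16, 17 and 18, Tg 17, 18 and 19). P-values therefore measure the spread between these pools only. The accounts of isolation differ, lavage cells adhering to plastic per the labels and AMs sorted from digested lung by flow cytometry per the methods. The libraries fell into 2 batches, which the methods give as dates of library preparation, with pools WT 16, WT 17 and Tg 17 in batch 1 and the other 3 pools in batch 2.

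TLRs are membrane receptors of the innate immune system that bind conserved microbial molecules and signal through MyD88 or TRIF to NF-κB and interferon regulatory factors. TLR2 pairs at the cell surface with TLR1 or TLR6 to recognise bacterial lipopeptides, whereas TLR3, TLR7, TLR8, TLR9 and TLR13 act in endosomes on nucleic acids. LPS itself is recognised by TLR4, so in these cultures none of the 8 receptors is the known receptor of the stimulus. AMs are the resident phagocytes of the airspace and meet inhaled microbes first.

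Total deposited counts were 48.2 to 60.9 M per library, and 14918 to 16165 genes had at least 1 count. The 12 alveolar macrophage markers that were looked up summed to 12900 to 23100 counts for each M library counts (CPM) in every library, most of it Chil3 and Ctsk. Markers of other cell types were lower. The epithelial list summed to 32.1 to 110.0 CPM, led by Scgb1a1 and Sftpc, and the conventional dendritic cell list to 2.61 to 20.2 CPM. The monocyte list summed to 0.937 to 2.49 CPM and the T or NK cell list to 0.38 to 1.84 CPM. The neutrophil list, with 7 of its 11 names in the count table, summed to 12.2 to 22.3 CPM. Of these S100a8 held 2.0 to 14.2 CPM and Csf3r 1.94 to 8.87 CPM, while Cxcr2 reached 9.64 CPM and Ltf 7.11 CPM. S100a9 and Ngp were at the floor of detection (at most 8 counts in every library). The plasmacytoid dendritic cell list summed to 84.7 to 503 CPM, of which Bst2, also an interferon-stimulated gene, alone held 83.9 CPM or more, while Klk1 and Spib were at the floor. Scnn1b held 0 to 40 counts per library with overlapping ranges in both genotypes, so it gave no check of the genotype labels in these cells. Because the samples are bulk cells, fewer cells of a type and less RNA per cell cannot be told apart.

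The promoter table of RefSeq (GRCm38.p6) held 9 upstream windows of 250 bases for 7 of the 8 genes, with none for Tlr7. Windows are shown for the receptors whose transcripts changed most with LPS and for Tlr6, cut to the bases outside the exons annotated for the gene, 5′ to 3′ on the transcribed strand, with motif matches in capitals. The motifs searched on both strands were the NF-κB consensus, GAAANNGAA (a core of interferon-response elements), TGANTCA (an AP-1 core) and GAGGAA (the core bound by PU.1). The Tlr2 stretch (chr3:83841768-83841858, minus strand), the Tlr1 stretch (chr5:64933564-64933808, minus strand), the Tlr6 stretch before the inner of its 2 RefSeq starts (chr5:64959167-64959416, minus strand) and the Tlr8 stretch (chrX:167264330-167264579, minus strand) read as follows.
Tlr2: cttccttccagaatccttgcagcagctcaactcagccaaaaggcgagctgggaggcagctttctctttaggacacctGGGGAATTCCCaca
Tlr1: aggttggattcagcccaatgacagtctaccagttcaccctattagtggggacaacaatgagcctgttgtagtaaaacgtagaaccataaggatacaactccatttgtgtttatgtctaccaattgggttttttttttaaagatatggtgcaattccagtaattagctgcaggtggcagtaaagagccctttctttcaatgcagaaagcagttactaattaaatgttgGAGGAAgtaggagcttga
Tlr6: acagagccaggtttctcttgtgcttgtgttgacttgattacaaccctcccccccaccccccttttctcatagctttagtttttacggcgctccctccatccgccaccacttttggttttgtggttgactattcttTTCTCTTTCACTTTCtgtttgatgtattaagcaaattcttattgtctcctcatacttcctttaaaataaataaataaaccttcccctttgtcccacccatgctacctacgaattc
Tlr8: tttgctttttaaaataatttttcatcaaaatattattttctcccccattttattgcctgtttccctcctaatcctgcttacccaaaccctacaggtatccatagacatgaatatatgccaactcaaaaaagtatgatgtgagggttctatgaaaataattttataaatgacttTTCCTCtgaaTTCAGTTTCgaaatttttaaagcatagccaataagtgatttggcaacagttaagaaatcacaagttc
The capitals in Tlr2 mark overlapping NF-κB matches from -173 to -163 relative to the RefSeq start, and those in Tlr6 mark 2 overlapping GAAANNGAA matches on the opposite strand from -115 to -101. In Tlr1 the capitals mark GAGGAA, and in Tlr8 they mark GAGGAA and then GAAANNGAA, both on the opposite strand. Over all 32851 promoters in the table, 7.25% held an NF-κB match, 7.13% GAAANNGAA, 6.75% TGANTCA and 23.3% GAGGAA. Among the other windows, Tlr3 held an NF-κB match from -211 to -202, Tlr9 held TGANTCA and GAGGAA, and Tlr13 held GAGGAA. The Tlr3 match lay outside the 72 bases that the same cut kept of its window. Tlr1 and Tlr6 each had a further window at another RefSeq start, not shown, that held none of the motifs. These are matches of letters only, and binding was not measured.

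LPS was compared with medium within each genotype to ask how these receptors respond to a stimulus that TLR4 senses. In WT AMs 5 of the 7 tested receptors changed (edgeR quasi-likelihood test, Benjamini-Hochberg adjusted p under 0.05 over all genes), with Tlr1, Tlr2, Tlr6 and Tlr7 higher and Tlr8 lower, where 31.8% of all genes passed (15.5% higher and 16.2% lower). In Scnn1b-Tg AMs 4 of the 7 changed, with Tlr1, Tlr2 and Tlr6 higher and Tlr8 lower, where 38.1% of all genes passed (19.3% higher and 18.7% lower). The median log2 fold change of the 7 receptors was 0.40 in WT and 0.21 in Scnn1b-Tg AMs, beside 0.00 and -0.02 over all genes tested. In each genotype 4 of the 7 had LPS and medium groups that did not overlap, as did 38.7% of all genes in WT and 43.8% in Scnn1b-Tg AMs. The lowest count of any of the 7 in any library was 64, so all 7 were detected in every library. Both comparisons rest on their own 6 libraries but share the batch term and the estimate of spread.

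Markers of cell identity moved with LPS in the same libraries. Of the 12 alveolar macrophage markers, 8 were below and 3 above medium in every LPS library of each genotype, but the 8 were not all the same. Chil3 was below in WT but overlapped in Scnn1b-Tg AMs (11500 to 14400 CPM in medium and 8080 to 12400 CPM in LPS). Itgax was below in Scnn1b-Tg AMs but overlapped in WT (381 to 445 and 298 to 389 CPM). Siglecf held 112 to 121 CPM in WT medium and 8.67 to 13.5 CPM in WT LPS, and 103 to 128 and 5.08 to 8.08 CPM in Scnn1b-Tg AMs, and Fabp4, Pparg and Mertk were lower likewise. Adgre1, the gene of F4/80, was higher, with 162 to 186 and 607 to 754 CPM in WT and 118 to 170 and 585 to 856 CPM in Scnn1b-Tg AMs, as were Marco and Car4. The summed level of the list was 17000 to 17300 CPM in medium and 12900 to 14700 CPM in LPS in WT, while in Scnn1b-Tg AMs the sums of 20000 to 23100 and 14700 to 20200 CPM met. The conventional dendritic cell list summed to 2.61 to 3.54 CPM in medium and 9.27 to 9.97 CPM in LPS in WT, and to 5.01 to 7.09 and 13.4 to 20.2 CPM in Scnn1b-Tg AMs, most of it Ccr7. The plasmacytoid dendritic cell list, most of it Bst2, summed to 84.7 to 193 and 204 to 424 CPM in WT and to 149 to 220.0 and 286 to 503 CPM in Scnn1b-Tg AMs. Of the 7 neutrophil markers in the count table, 1 was above and 2 below medium in every WT LPS library. In Scnn1b-Tg AMs 2 were above and 2 below. S100a8 was above, with 2.0 to 3.89 CPM in medium and 6.0 to 9.25 CPM in LPS in WT. In Scnn1b-Tg AMs it held 3.65 to 5.78 and 7.62 to 14.2 CPM, while Csf3r and Cxcr2 were below in both genotypes. The part of these markers in the receptor values was not tested.

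**Figure D1:**
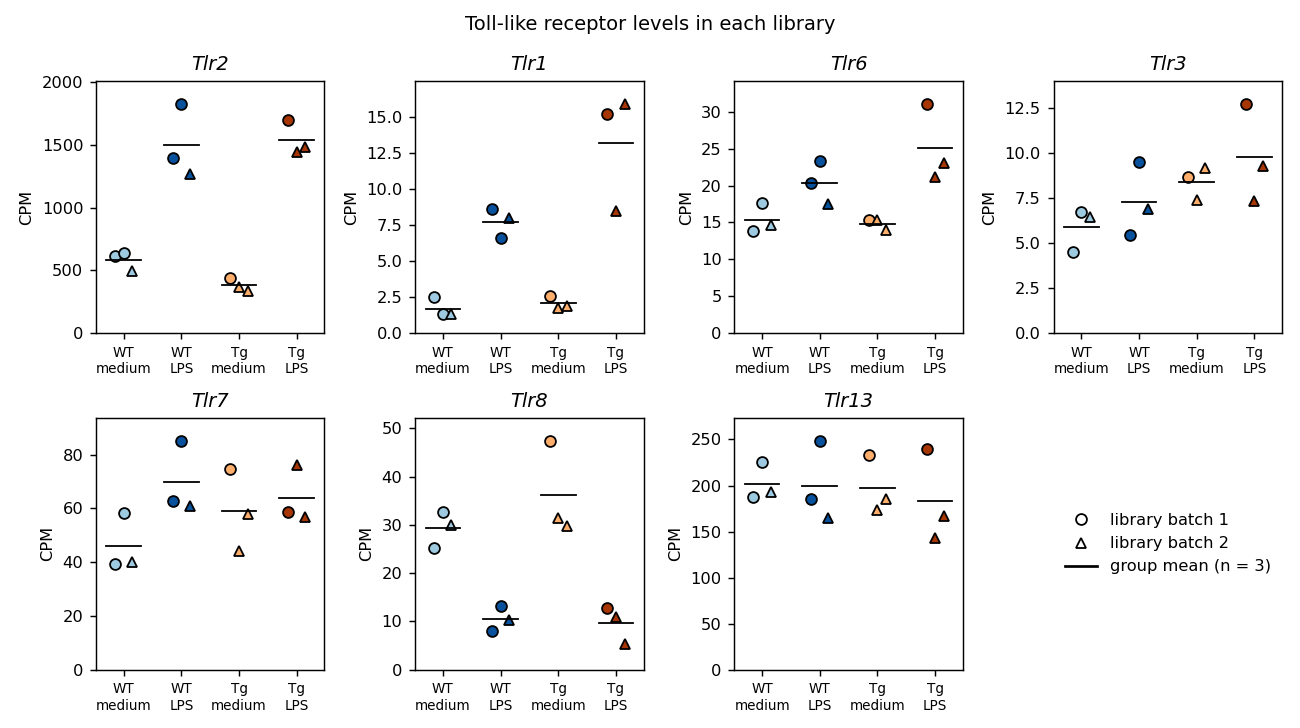
Level of the 7 tested receptors in each of the 12 libraries, in CPM on linear axes that start at 0. Circles are batch 1, triangles batch 2, and lines are group means (n = 3). Tlr2 and Tlr1 lie higher and Tlr8 lower in all LPS libraries than in all medium libraries of the same genotype, while Tlr13 overlaps throughout.

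Tlr2 (ENSMUSG00000027995, mm10, chromosome 3, 83836272 to 83841767, minus strand) encodes the common subunit of the lipopeptide receptors. Its level was 614, 636 and 493 CPM in the WT medium libraries of pools 16, 17 and 18, and 1396, 1826 and 1264 CPM in the matching WT LPS libraries. In Scnn1b-Tg pools 17, 18 and 19 it was 442, 371 and 333 CPM in medium and 1696, 1440 and 1480 CPM in LPS. All 6 LPS libraries therefore lay above all 6 medium libraries. The rise was 2.57-fold in WT (log2 fold change 1.36, SE 0.10, edgeR adjusted p = 1.58e-06) and 4.04-fold in Scnn1b-Tg AMs (2.02, SE 0.10, edgeR adjusted p = 8.18e-08). Within batches the log2 differences were 1.35 and 1.36 in WT and 1.94 and 2.05 in Scnn1b-Tg AMs. Among the tested genes Tlr2 stood at place 246 by p in WT and 99 in Scnn1b-Tg AMs.

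Tlr1 (ENSMUSG00000044827, chromosome 5, 64924679 to 64933563, minus strand), the partner of TLR2 for triacylated lipopeptides, was the scarcest tested receptor in medium and rose by the largest factor of the 7. WT pools 16, 17 and 18 held 2.47, 1.30 and 1.29 CPM in medium and 8.57, 6.59 and 7.95 CPM in LPS. Scnn1b-Tg pools 17, 18 and 19 held 2.55, 1.77 and 1.87 CPM in medium and 15.2, 8.44 and 15.9 CPM in LPS. The lowest LPS library of either genotype was thus above the highest medium library of both. The rise was 4.57-fold in WT (log2 fold change 2.19, SE 0.29, edgeR adjusted p = 0.000173) and 6.39-fold in Scnn1b-Tg AMs (2.68, SE 0.28, edgeR adjusted p = 2.09e-05). These levels rest on 64 to 863 deposited counts per library.

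Tlr6 (ENSMUSG00000051498, chromosome 5, 64952031 to 64960097, minus strand), the partner for diacylated lipopeptides, lies 18.5 kb from Tlr1 and moved less. It held 13.9, 17.6 and 14.7 CPM in WT medium and 20.4, 23.3 and 17.5 CPM in WT LPS, and the groups met at their edges. In Scnn1b-Tg AMs it held 15.3, 15.3 and 13.9 CPM in medium and 31.1, 21.2 and 23.1 CPM in LPS, with no overlap. Its level was higher with LPS in all 6 pools. The change was 1.32-fold in WT (log2 fold change 0.40, SE 0.13, edgeR adjusted p = 0.0337) and 1.67-fold in Scnn1b-Tg AMs (0.74, SE 0.13, edgeR adjusted p = 0.000801). The WT call was lost under 5 of 22 alternatives, with an adjusted p of 0.128 without the WT medium 16 library, 0.108 without WT LPS 17 and 0.0708 without WT LPS 18. Tlr1 and Tlr6 are near copies in part of their coding sequence, and 5.80% of the 125-base windows of Tlr1 transcripts occurred exactly in Tlr6 transcripts (13.6% of 50-base windows), so some reads could have been shared between them. No other pair of the 8 genes had such a window in common.

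**Figure D2:**
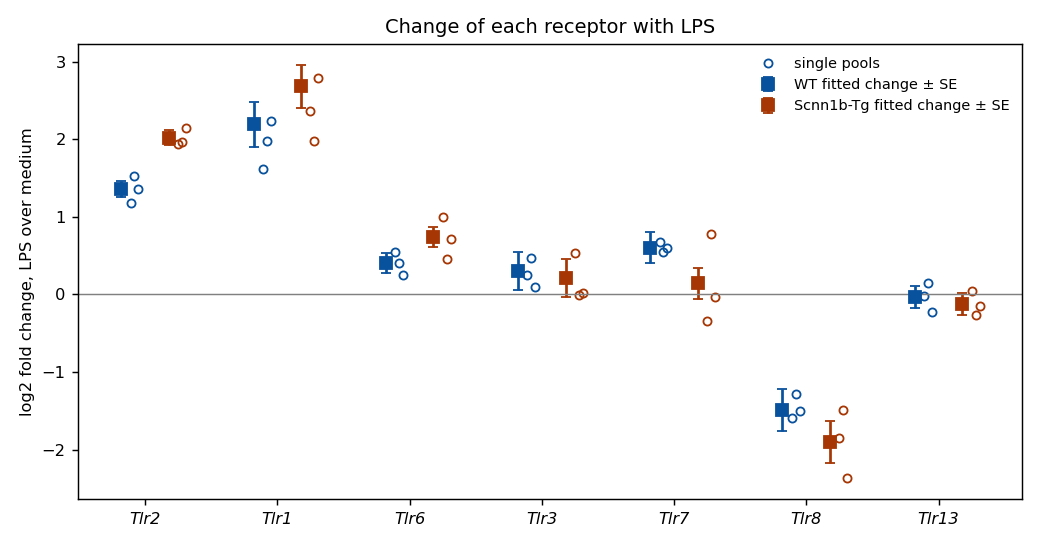
Log2 fold change of LPS over medium for each tested receptor in WT (blue) and Scnn1b-Tg AMs (brown). Squares with bars are the fitted change and its SE, and open circles are the changes in single pools (log2 of CPM plus 0.5, which makes those of Tlr1 smaller). Tlr2 changed by 1.18 to 1.52 in WT pools and by 1.94 to 2.15 in Scnn1b-Tg pools, and Tlr7 was lower with LPS in 2 Scnn1b-Tg pools and higher in the other 4 pools.

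Among the receptors for nucleic acids, Tlr8 (ENSMUSG00000040522, chromosome X, 167242696 to 167264329, minus strand), related to the sensor of RNA breakdown products in other mammals, was the receptor that fell. It held 25.3, 32.8 and 29.98 CPM in WT medium and 7.99, 13.2 and 10.3 CPM in WT LPS. In Scnn1b-Tg AMs it held 47.5, 31.4 and 29.8 CPM in medium and 12.8, 10.8 and 5.37 CPM in LPS. Every LPS library was below every medium library. The fall was 2.81-fold in WT (log2 fold change -1.49, SE 0.27, edgeR adjusted p = 0.00149) and 3.74-fold in Scnn1b-Tg AMs (-1.90, SE 0.27, edgeR adjusted p = 0.000218).

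Its neighbour Tlr7 (ENSMUSG00000044583, chromosome X, 167304929 to 167330558, minus strand), a receptor for single-stranded RNA 40.6 kb away, had levels in LPS that were not below those in medium in WT AMs. In WT AMs Tlr7 held 39.4, 58.5 and 40.04 CPM in medium and 62.9, 85.2 and 60.9 CPM in LPS, a 1.52-fold rise (log2 fold change 0.60, SE 0.20, edgeR adjusted p = 0.0432). The Scnn1b-Tg pools held 74.8, 44.2 and 57.9 CPM in medium and 58.6, 76.0 and 56.7 CPM in LPS, and the groups overlapped (0.14, SE 0.20, edgeR adjusted p = 0.633). The pools agreed in WT, with changes of 0.67, 0.54 and 0.60, but not in Scnn1b-Tg AMs, with -0.35, 0.78 and -0.03. Whether the genotypes differed was tested as a difference of the responses, which was -0.46 (SE 0.29, edgeR unadjusted p = 0.136, adjusted p = 0.909). The WT call of Tlr7 was lost under 8 of 22 alternatives, with adjusted p of 0.0541 to 0.149, among them leaving out WT medium 16 or 18, WT LPS 17 or 18, Tg medium 19 or Tg LPS 19.

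Tlr3 (ENSMUSG00000031639, chromosome 8, 45395665 to 45411080, minus strand), the receptor for double-stranded RNA, held 4.53, 6.74 and 6.45 CPM in WT medium and 5.47, 9.52 and 6.87 CPM in WT LPS. In Scnn1b-Tg AMs it held 8.66, 7.40 and 9.17 CPM in medium and 12.7, 7.32 and 9.28 CPM in LPS. The groups overlapped in both genotypes. The log2 fold change was 0.30 in WT (SE 0.25, edgeR adjusted p = 0.395), and the Scnn1b-Tg value was 0.21 (SE 0.24, edgeR adjusted p = 0.541). Exons of Tlr3 overlap an antisense gene, Gm45542, from which reads could not be told apart because counting ignored strand.

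Tlr13 (ENSMUSG00000033777, chromosome X, 106143204 to 106160493, plus strand), a mouse receptor for bacterial ribosomal RNA, had overlapping groups throughout. Its levels were 187, 225 and 193 CPM in WT medium, 185.2, 248.7 and 164.8 CPM in WT LPS, 234, 174 and 185 CPM in Scnn1b-Tg medium and 240, 144 and 167 CPM in Scnn1b-Tg LPS. The log2 fold changes with LPS were -0.03 in WT (SE 0.14, edgeR adjusted p = 0.885) and -0.12 in Scnn1b-Tg AMs (SE 0.14, edgeR adjusted p = 0.524).

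Tlr9 (ENSMUSG00000045322, chromosome 9, 106222598 to 106226883, plus strand), the receptor for unmethylated CpG DNA, was near or at the floor. The WT medium libraries held 10, 3 and 5 counts, WT LPS 10, 15 and 0, Scnn1b-Tg medium 5, 5 and 0, and Scnn1b-Tg LPS 4, 0 and 5. Both Scnn1b-Tg groups were at the floor, which corresponds to 0.137 to 0.163 CPM depending on the library, and no fold change is given. Tlr9 transcripts were thus hardly detectable in any group at this depth.

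For comparison, Tlr4 held 45.3, 50.8 and 40.9 CPM in WT medium and 34.8, 11.6 and 3.57 CPM in WT LPS (log2 fold change -1.63, SE 0.48, edgeR adjusted p = 0.0238), with a wide spread between pools. That call was lost under 5 of 22 alternatives, chosen after the data were seen, namely no batch term (adjusted p = 0.0669), only the groups compared (0.0763), and without WT medium 17 (0.0502), WT medium 18 (0.0876) or WT LPS 17 (0.0754). The log2 fold change was -2.59 without WT LPS 16 and -1.08 without WT LPS 18. The Scnn1b-Tg pools held 50.8, 39.5 and 43.6 CPM in medium and 43.6, 32.4 and 32.6 CPM in LPS (-0.32, SE 0.46, edgeR adjusted p = 0.630).

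Levels of different receptors were compared as CPM per kb of merged exon. In WT medium the order was Tlr2 (192.7 ± 25.7, SD, n = 3), Tlr13 (46.9 ± 4.72), Tlr7 (11.3 ± 2.65), Tlr8 (8.18 ± 1.05), Tlr6 (4.13 ± 0.519), Tlr3 (1.14 ± 0.231), Tlr1 (0.504 ± 0.203) and Tlr9 (0.0327 ± 0.0173), and no neighbours in this order overlapped. The order of means was the same in Scnn1b-Tg medium, where Tlr7 (14.4 ± 3.76) and Tlr8 (10.1 ± 2.73) overlapped. In WT LPS, Tlr6 (5.47 ± 0.780) stood above Tlr8 (2.92 ± 0.722), Tlr8 and Tlr1 (2.30 ± 0.302) overlapped, and Tlr3 (1.40 ± 0.395) came after Tlr1. In Scnn1b-Tg LPS, Tlr1 (3.94 ± 1.23), Tlr8 (2.70 ± 1.07) and Tlr3 (1.88 ± 0.526) overlapped with their neighbours. The places were the same when the longest protein-coding transcript was used as the length.

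**Figure D3:**
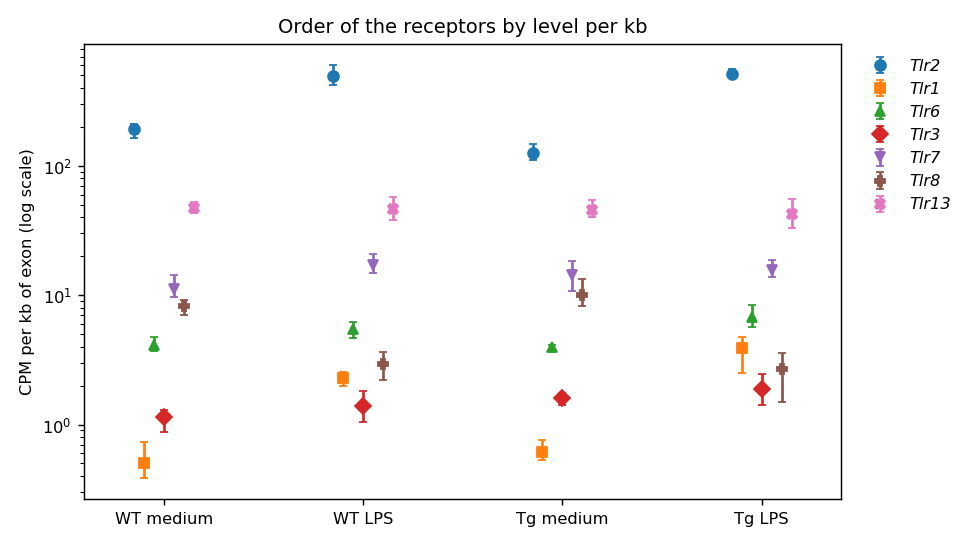
Level per kb of exon of the 7 tested receptors in each group, on a log axis. Symbols are means of 3 libraries and bars run from the lowest to the highest library. Tlr2 is highest and Tlr13 next in all 4 groups, and Tlr8 moves from above to below Tlr6 with LPS.

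Tlr2 made up most receptor transcript per kb in every group. Its share of the 8 genes was 72.7% ± 2.68 in WT medium and 86.8% ± 0.113 in WT LPS, and 62.4% ± 2.34 in Scnn1b-Tg medium and 87.5% ± 0.983 in Scnn1b-Tg LPS (SD, n = 3 each). The share of Tlr13, whose own level did not pass the test, went from 17.8% ± 1.59 to 8.09% ± 0.180 in WT and from 22.6% ± 1.13 to 7.21% ± 1.22 in Scnn1b-Tg AMs.

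Ratios between receptors that share a partner or a locus were computed in each pool, in 16 tests. The ratio per kb of Tlr2 to Tlr6 was 46.9 ± 6.83 in WT medium and 90.3 ± 6.21 in WT LPS, and 31.8 ± 3.50 in Scnn1b-Tg medium and 77.0 ± 8.54 in Scnn1b-Tg LPS. The ratio of Tlr6 to Tlr1 was 9.15 ± 3.66 in WT medium and 2.43 ± 0.652 in WT LPS, and 6.62 ± 1.2 in Scnn1b-Tg medium and 1.80 ± 0.471 in Scnn1b-Tg LPS. Both Tlr2 and Tlr1 thus lay higher relative to Tlr6 in LPS. The ratio of Tlr7 to Tlr8 was 1.37 ± 0.200 in WT medium and 5.94 ± 0.878 in WT LPS, and 1.44 ± 0.241 in Scnn1b-Tg medium and 6.49 ± 2.64 in Scnn1b-Tg LPS. On the log2 scale the LPS change over the 6 pools was 1.11 ± 0.32 for Tlr2 over Tlr6, 1.87 ± 0.45 for Tlr1 over Tlr6, 0.76 ± 0.33 for Tlr1 over Tlr2 and 2.11 ± 0.34 for Tlr7 over Tlr8 (SD over pools). Each was positive in 6 of 6 pools with a two-sided exact sign-flip permutation p of 0.0312, the smallest that 6 pools allow, and an adjusted p of 0.125 over the 16 tests. The other 12 tests, of genotype, had exact permutation p of 0.1 or more, 0.1 being the smallest for 3 against 3.

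**Figure D4:**
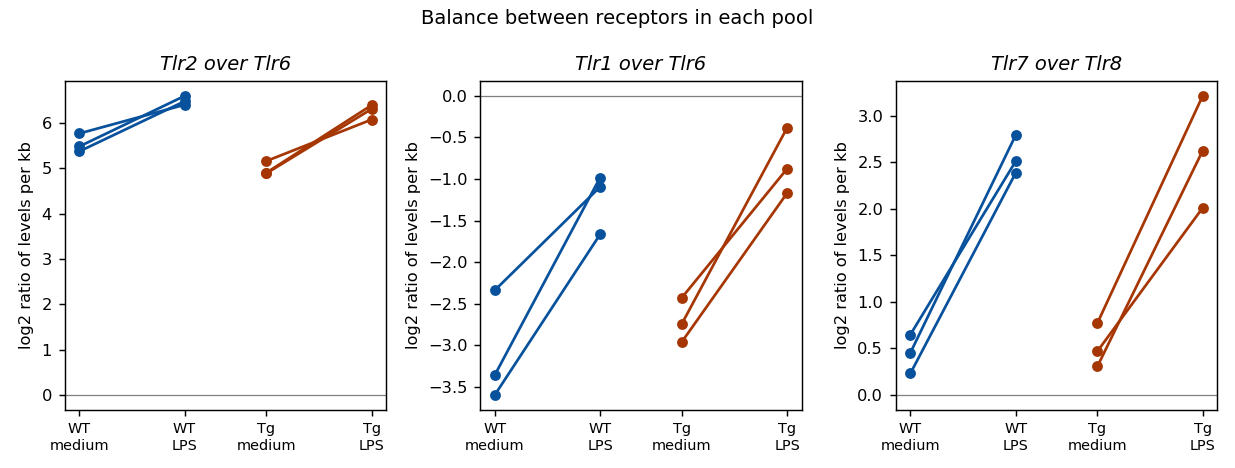
Log2 ratio of levels per kb for 3 pairs of receptors in medium and LPS, with a line for each of the 3 WT (blue) and 3 Scnn1b-Tg pools (brown). All 6 lines rise in each panel, and Tlr1 stays below Tlr6 (log2 ratio under 0) in all 12 libraries.

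Genotypes were then compared within each treatment to ask whether the muco-obstructed airway changes the receptors at rest or after LPS. In medium, 0 of the 7 receptors passed in edgeR, where 0.335% of all genes passed. An unadjusted p under 0.05 was held by 2 of the 7 and by 13.4% of all genes, and DESeq2 called 1 of the 7 and 3.65% of all genes. The receptor nearest to the threshold was Tlr2, whose 3 Scnn1b-Tg libraries (333 to 442 CPM) all lay below the 3 WT libraries (493 to 636 CPM). The log2 fold change was -0.50 (SE 0.10, edgeR unadjusted p = 0.000382, adjusted p = 0.0691) and was -0.50 and -0.49 within the batches. It passed under 4 of 21 alternatives, namely DESeq2 (adjusted p = 0.000281), the replicate number as a block in place of the batch (0.0495), and without the WT LPS 16 (0.0488) or WT LPS 17 library (0.0263). Tlr3 was the other receptor whose groups did not overlap (0.56, SE 0.25, edgeR unadjusted p = 0.0459, adjusted p = 0.360), where 18.4% of all genes did not overlap. The remaining receptors had log2 fold changes between 0.03 (Tlr6, SE 0.13) and 0.43 (Tlr7, SE 0.21), with edgeR adjusted p of 0.406 or more. In the same medium libraries the epithelial markers summed to 39.1 to 67.9 CPM in Scnn1b-Tg and 77.3 to 103 CPM in WT AMs, the alveolar macrophage markers to 20000 to 23100 and 17000 to 17300 CPM, and the conventional dendritic cell list to 5.01 to 7.09 and 2.61 to 3.54 CPM, most of it Ccr7, with Flt3 at the floor. The part of these differences in the receptor values was not tested.

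After LPS, 0 of the 7 receptors passed in edgeR, where 0.051% of all genes passed. An unadjusted p under 0.05 was held by 2 of the 7 and by 7.12% of all genes, and DESeq2 called 0 of the 7 and 1.06% of all genes. Tlr1 was 1.81-fold higher in Scnn1b-Tg LPS by the fit (log2 fold change 0.85, SE 0.26, edgeR unadjusted p = 0.00674, adjusted p = 0.368), but the ranges of 8.44 to 15.9 CPM and 6.59 to 8.57 CPM met. Tlr6 gave 0.38 (SE 0.13, edgeR unadjusted p = 0.0146, adjusted p = 0.496), and Tlr2, whose medium levels had stood apart, gave 0.15 (SE 0.10, edgeR adjusted p = 0.883). No receptor had groups without overlap here, where 9.11% of all genes did. In the same LPS libraries the epithelial markers summed to 32.1 to 61.8 CPM in Scnn1b-Tg and 75.7 to 110.0 CPM in WT AMs. The conventional dendritic cell list summed to 13.4 to 20.2 and 9.27 to 9.97 CPM, most of it Ccr7. The alveolar macrophage markers summed to 14700 to 20200 and 12900 to 14700 CPM. Their part in the receptor values and responses was not tested.

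The difference in LPS response between the genotypes was 0 of 7 by edgeR, where 0.0% of all genes passed (1 receptor and 5.95% of all genes had an unadjusted p under 0.05, and DESeq2 called 1 receptor and 0.561% of all genes). Tlr2 was that receptor. Its response was larger in Scnn1b-Tg AMs by 0.65 (SE 0.14, edgeR unadjusted p = 0.000569, adjusted p = 0.329, place 21 of 13729 by p), and by 0.59 and 0.69 within the batches. The changes of the 3 Scnn1b-Tg pools (1.94, 1.96 and 2.15) lay above those of the 3 WT pools (1.18, 1.52 and 1.36), a separation held by 16.2% of all genes in either direction. DESeq2 gave an adjusted p of 0.00338, so the call depended on the tool.

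The rest of the pathway was described from gene lists. Of 9 tested co-receptors and ligand carriers, 3 rose and 3 fell in each genotype, where 15.5% of all genes rose and 16.2% fell in WT and 19.3% and 18.7% in Scnn1b-Tg AMs. The median log2 fold change of the list was -0.06 and -0.17, beside 0.00 and -0.02 over all genes. Cd14, which hands LPS and lipopeptides to TLR4 and TLR2, held 57.4 ± 9.23 CPM in WT medium and 575.3 ± 12.5 CPM in WT LPS (log2 fold change 3.34, SE 0.10, edgeR adjusted p = 8.13e-09). The Scnn1b-Tg pools held 34.8 ± 2.62 CPM in medium and 598.1 ± 83.3 CPM in LPS (4.10, SE 0.10, edgeR adjusted p = 1.73e-09). In medium Cd14 was lower in Scnn1b-Tg AMs, with 32.1 to 37.3 CPM against 49.3 to 67.4 CPM, and here the difference passed (-0.79, SE 0.09, edgeR adjusted p = 0.00975). It was lost under 4 of 21 alternatives, namely no batch term (adjusted p = 0.0555) and without WT medium 18 (0.0574), Tg medium 17 (0.115) or Tg medium 19 (0.0567), chosen after the data were seen. Msr1, a scavenger receptor gene, also rose with LPS in each genotype (WT 1.1, SE 0.25, then Scnn1b-Tg 1.5, SE 0.25). So did Marco, another scavenger receptor gene (0.99, SE 0.27, then 1.62, SE 0.27, WT first). Ly86, the partner of the TLR homologue CD180, fell (-1.52, SE 0.17, and -2.27, SE 0.17, in the same order). Among 3 tested relatives of the family (Tlr4, Tlr5 and Cd180), 2 fell in WT, or 1 where Tlr4 lost its call, and 1 fell in Scnn1b-Tg AMs, or 2 with only the groups compared. Without WT medium 18, 1 of the 3 rose in WT.

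Of 16 tested chaperones and trafficking genes that carry TLRs to their compartments, 2 rose and 4 fell in WT, and 4 rose and 4 fell in Scnn1b-Tg AMs, beside 31.8% and 38.1% of all genes called in either direction. The median log2 fold change was -0.13 and -0.24. With each of the replicate blocks, the rises in WT became 4 and the falls in Scnn1b-Tg AMs 8, DESeq2 also called 4 rises in WT, and the Scnn1b-Tg rises were 2 without Tg medium 17, Tg medium 19 or Tg LPS 19. The small GTPase gene Rab10 (0.78, SE 0.09, and 1.13, SE 0.09, in WT and Scnn1b-Tg AMs) and the lysosomal transporter gene Slc15a3 (0.89, SE 0.13, and 1.07, SE 0.13) rose, and Arl8b, which moves lysosomes, fell (-0.70, SE 0.08, and -0.89, SE 0.08). Unc93b1, named after its values were seen because it escorts the endosomal receptors, held 334 to 371 CPM in WT medium and 214 to 263 CPM in WT LPS, and fell likewise from a range of 402 to 467 CPM to 269 to 283 CPM in the transgenic cells. Its groups did not overlap, and the log2 fold changes were -0.54 (SE 0.08, edgeR adjusted p = 0.000323) and -0.66 (SE 0.08, edgeR adjusted p = 5.73e-05).

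Of 12 tested genes that cut endosomal receptors or digest nucleic acids, 1 rose and 7 fell in WT, and 2 rose and 6 fell in Scnn1b-Tg AMs, with median log2 fold changes of -0.45 and -0.51 beside 0.00 and -0.02 over all genes. Of all genes 16.2% and 18.7% fell. Without WT LPS 18 the falls in WT were 4. The single rise in WT was 0 with no filter, no batch term or only the groups compared, and without WT medium 17 or 18, WT LPS 16 or 18, any Tg medium library, Tg LPS 17 or Tg LPS 18. It became 2 with DESeq2, with each replicate block and without WT LPS 17. Lgmn, an asparagine endopeptidase that processes TLR9, held 691.3 ± 23.9 CPM in WT medium and 171.2 ± 11.5 CPM in WT LPS (-2.01, SE 0.08, edgeR adjusted p = 2.98e-08). In the Scnn1b-Tg groups it held 875.5 ± 58.4 and 199.8 ± 9.51 CPM (-2.13, SE 0.08, edgeR adjusted p = 1.44e-08). Pld4, an endosomal exonuclease, also fell in both (-1.24, SE 0.13, and -1.85, SE 0.13), as did Dnase2a in WT (-0.70, SE 0.19). Rnaset2a, an RNase that makes ligands for TLR8 in human cells, rose in Scnn1b-Tg AMs (0.98, SE 0.15, edgeR adjusted p = 0.000382). It was also the single rise in WT (0.44, SE 0.15, edgeR adjusted p = 0.0459), the call that the alternatives above changed. Its near copy Rnaset2b could have shared its reads.

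Downstream, 10 of 18 tested adaptors and proximal kinases rose and 2 fell in WT, and 9 rose and 3 fell in Scnn1b-Tg AMs, or 1 fell without Tg LPS 18, where 15.5% and 19.3% of all genes rose. With only the groups compared, 0 fell in WT. The median log2 fold change was 0.38 and 0.41. Irak3, a brake on TLR signalling, rose by 2.08 (SE 0.17) and 2.35 (SE 0.17), the ubiquitin ligase gene Peli1 by 1.79 (SE 0.10) and 1.96 (SE 0.10), and the kinase gene Ikbke by 1.36 (SE 0.11) and 1.66 (SE 0.11) on the log2 scale. Exons of Irak3, Ikbke and Rab10 overlap antisense genes. Those of Irak3, Slc15a3, Dnase2a, Rnaset2a and Cxcl10, which is given below, overlap other protein-coding genes. The values of all these genes are therefore uncertain. Of 10 tested cytosolic nucleic acid sensors, 7 rose and 1 fell in each genotype (2 fell in WT without WT medium 17, with DESeq2 and under 4 other alternatives), led by Zbp1 (2.41, SE 0.24, and 2.07, SE 0.23), Ifih1 (1.83, SE 0.20, and 1.70, SE 0.20) and Ifi204 (1.51, SE 0.27, and 1.09, SE 0.26). The rises of these sensors in Scnn1b-Tg AMs were 5 without Tg medium 18 or Tg LPS 17. All 10 interferon-stimulated genes rose in each genotype, against the same 15.5% and 19.3% of all genes, led by Cxcl10 (4.93, SE 0.28, and 5.68, SE 0.28) and Ifit1 (4.05, SE 0.46, and 4.00, SE 0.46). The log2 fold changes of the cytosolic sensors ranged from -0.49 (Tmem173) to 2.41 (Zbp1) in WT and from -0.49 to 2.07 in Scnn1b-Tg AMs. Their medians were 1.00 and 0.83. The endosomal receptors Tlr3, Tlr7, Tlr8 and Tlr13 ranged from -1.49 to 0.60 and from -1.90 to 0.21, so the ranges overlapped in each genotype. In the comparisons of genotype and of response, Cd14 in medium was the listed gene that passed in edgeR.

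To place each receptor among other genes, the protein-coding genes whose centred log2 CPM over the 12 libraries differed least from it (root mean square difference, 8764 genes searched) were found. For Tlr2 they were Nfkb2 (0.121), the gene of an NF-κB subunit, and Bcl3 (0.131), the gene of a nuclear IκB protein. For Tlr1 they were Ms4a7 (0.319) and Traf5 (0.375), for Tlr6 Tm9sf4 (0.124) and Plekha8 (0.125), and for Tlr8 Pros1 (0.253), the gene of protein S, and Rassf5 (0.266). For Tlr7 they were Qser1 (0.202) and Ddx6 (0.203), for Tlr3 Trim14 (0.154) and H2-T24 (0.176), and for Tlr13 Sf3a1 (0.0710) and Vps18 (0.0715). The libraries share pools and treatment, so these are descriptions of likeness only.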

How the data were processed

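RNA of 12 libraries was made with the SMART-Seq v4 kit and sequenced as read pairs of 125 bp. The values are estimated counts per gene that the authors deposited as whole numbers: HISAT2 aligned the reads to mm10 without regard to strand, StringTie quantified the transcripts of GENCODE M20, and a StringTie helper turned coverage into counts. That conversion makes a read worth more than 1 count (55.3% of the 47985 values from 1 to 30 were 0 or 3 modulo 5, where 40% would be even), so the floor was set at 8 counts, covering counting error only. Symbols and positions came from GENCODE M21 on mm10, in which 393 IDs with 0.25% of counts had no match.

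Libraries were scaled by TMM, and the genes that filterByExpr kept (count of at least 10, total of at least 15) were tested two-sided with edgeR 4.0.16 in R 4.3.3 (glmQLFit with legacy=FALSE) with terms for group and library batch over all 12 libraries. Benjamini-Hochberg adjustment covered 13729 genes. CPM are TMM-scaled, and SE are standard errors of log2 fold changes. Changes by pool and within batches use log2 of CPM plus 0.5, which makes the changes of scarce genes such as Tlr1 smaller. For Tlr1 in WT pool 18 the change was 2.24 on that scale, where the CPM ratio was 6.18. The search for alike genes, the pool correlations and the share of all genes whose pool changes separated use log2 CPM with a prior count of 2. DESeq2 1.42.0 and limma 3.58.1 served as alternatives. The tests were run first on simulated data. Ratios were tested by exact permutation. Libraries of a pool came from the same animals, and the correlations of their deviations from group means were 0.137 to 0.335 over the 6 pools.

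The receptors and gene lists were chosen with earlier results of these data known. Named were the 8 receptors, up to 3 called genes of each list with the largest change and a mean of at least 5 CPM, and the 2 most alike genes of each tested receptor. Protein sequences were not used here.

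The interferon-type motif searched, GAAANNGAA, was shortened after matches of a longer form had been seen. One further marker list is not reported here.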

Additional observations from a re-analysis of the deposited data

How the results depend on the processing

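The number of receptors changed by LPS in WT AMs was 5, and 3 without a batch term. Leaving out each library in turn gave 3 to 5, with 3 without WT medium 16, WT LPS 17 or WT LPS 18, where Tlr6 and Tlr7 were lost. Between genotypes in medium the number was 0, and 1 (Tlr2) with DESeq2 and with the replicate number as a block in place of the batch, and 0 to 1 over the libraries left out. For the difference in response it was 0, and 1 (Tlr2) with DESeq2. The other counts of receptors stayed within 1.5 times under every alternative run, which were DESeq2, its size factors in edgeR, no filter, a mean of at least 50 counts, no batch term, only the groups compared, counts divided by 5, and blocks. As libraries of a pool are paired, the pool was tried as a fixed block and as a random effect (correlation 0.327). Neither changed a receptor's call for LPS or for the difference in response, and each gave 5 LPS calls for WT and 4 for Scnn1b-Tg AMs. Each pool is of 1 genotype, so for the genotype comparisons only the random effect could be fitted, and it changed no call. Tlr1, Tlr2 and Tlr8 kept their LPS calls in both genotypes, and Tlr6 in Scnn1b-Tg AMs, under all 22 alternatives. Depth limited Tlr9, with at most 15 counts in a library, and Tlr1 in medium, with as few as 64.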
